A study of Arabidopsis thaliana with 14 samples.

Results

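The genes described here encode the chlorophyll-binding antenna proteins and the nuclear-encoded subunits of photosystem I and photosystem II of Arabidopsis thaliana. They were chosen by locus: 43 loci of the LHCA, LHCB, PSA and PSB families, of 18309 genes tested, were matched to the array through the transcript that each probe names. All 43 were measured, with 127 probes, and each was well above background on all 14 arrays, so none was lost to the filter on dim probes. There were 20 antenna genes (6 LHCA genes of photosystem I, 9 genes of the major antenna of photosystem II and 5 of its minor antenna), 22 core genes (12 of photosystem I, 6 of the oxygen-evolving part of photosystem II and 4 small subunits of photosystem II) and PSBS, which belongs to neither.

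RNA of whole seedlings was hybridised to 14 single-colour Agilent arrays. Seedlings of the wild type (Col-0), and of plants in the same background that carry 35S:YFP-AFL1, were 7 days old and had grown on agar plates in continuous light of 80 to 100 micromol photons per square metre and second at 23 C. For the last 10 h they were either on control plates or on plates infused with polyethylene glycol to reach -1.2 MPa, called low water potential or stress below. Each treatment had 4 wild-type and 3 35S:YFP-AFL1 arrays. In 35S:YFP-AFL1 seedlings a viral promoter, active in most plant cell types, drives a fusion of yellow fluorescent protein and AFL1 (AT3G28270), short for At14a-like 1; the labels do not say how many independent lines were used or whether seedlings were pooled. They also do not say whether replicates came from separate cultures, so the p-values rest on the spread among these arrays alone, and that spread may be technical.

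Antenna proteins hold most of the chlorophyll of a leaf and pass the absorbed energy to the photosystem cores, where light drives the transfer of electrons from water to ferredoxin. The LHCA proteins form a belt on photosystem I, while LHCB1, LHCB2 and LHCB3 form the trimers of the major photosystem II antenna and LHCB4, LHCB5 and LHCB6 are monomers that link the trimers to the core. Their genes are expressed in green tissue, and their transcripts are known to fall under many stresses and when chloroplast function is impaired.

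Each value below is the log2 of an array's background-subtracted signal minus that array's 75th percentile, so that 1 unit is a 2-fold difference, and values are given in the order of the replicate numbers. Fold changes, their standard errors (after ±) and adjusted p-values come from limma fitted to all 14 arrays, with Benjamini-Hochberg adjustment over all genes and a threshold of 0.05. As a check of the labels, AFL1 itself stood between -0.55 and 0.66 in wild-type control and between 2.08 and 2.51 in 35S:YFP-AFL1 control, without overlap. At low water potential it stood between 3.33 and 4.08 in wild type and between 3.82 and 4.08 in 35S:YFP-AFL1, where the ranges overlapped. Markers of both organs of a seedling were present: 15 of 16 shoot markers and 15 of 18 root markers passed the filter, and WOX5, PLT1, PLT2 and SPCH did not. The 3 35S:YFP-AFL1 arrays of each treatment lay on 1 slide together with replicate 1 of wild type (slide 4 for control, slide 5 for stress), and the other wild-type arrays lay on slides 1 to 3. Replicate 1 of wild type stood apart from the other wild-type arrays at several of these genes, as described with the results it touches.

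In wild type, transcripts of nearly all of these nuclear-encoded antenna and photosystem genes fell within 10 h at low water potential. Of the 43 genes, 42 were called lower and 0 higher, against 33.4% of all genes called lower and 30.7% higher (64.1% together), and the median log2 fold change was -1.65, against -0.03 over all genes. On 42 genes every stress array lay below every control array, which held for 27.4% of all genes, and 39 fell more than 2-fold, as 19.6% of all genes did. LHCA5 was the gene that was not called, and LHCB1.3, LHCB1.5 and PSBR were called but fell less than 2-fold. In 35S:YFP-AFL1, 42 genes were again called lower and 0 higher (33.3% of all genes lower, 30.1% higher and 63.3% together), the median was -2.0 against -0.04 over all genes, and 40 fell more than 2-fold (22.1% of all genes). Separation of every stress array from every control array in that genotype held for 42 of the 43 genes and for 39.5% of all genes.

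**Figure D1:**
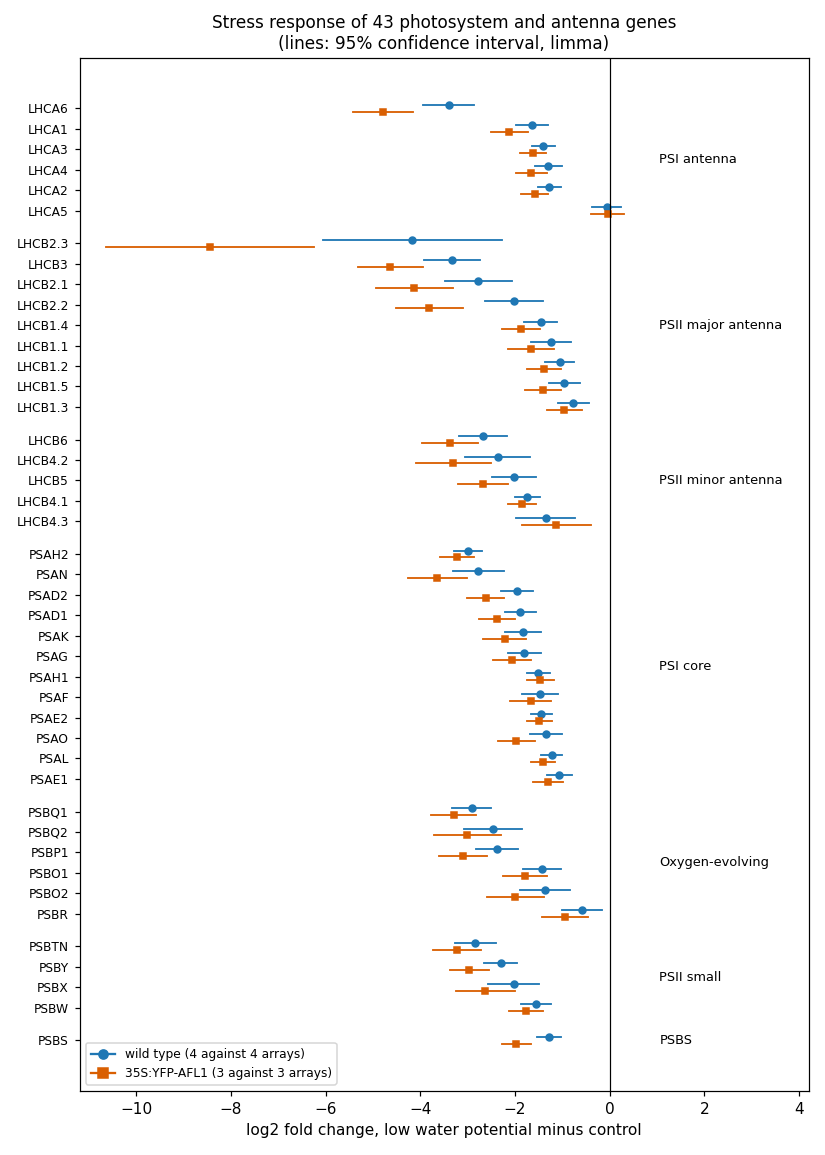
Log2 fold change at low water potential against control (horizontal axis) of the 43 genes, grouped by role, in wild type (blue circles, 4 against 4 arrays) and in 35S:YFP-AFL1 (orange squares, 3 against 3 arrays). Lines are 95% confidence intervals from limma. All points except those of LHCA5 lie to the left of 0 with their intervals, and LHCB2.3 lies farthest to the left in both genotypes.

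Within wild type the fall was seen on each scan day and within a slide. Arrays scanned on day 1 gave a median of -1.42 with 42 genes below 0 (50.9% of all genes), and those scanned on day 2 a median of -1.71 with 43 below 0 (51.5%). Slide 2, which held 1 control and 1 stress array, gave a median of -1.57 with 43 below 0 (51.9%). Stress replicate 2 was the only stress array of both day 1 and slide 2, so these values are not independent. On day 2 the only control array was replicate 1. The slides of the 35S:YFP-AFL1 arrays each held a single treatment, also for wild-type replicate 1. The 35S:YFP-AFL1 response could therefore not be taken within a slide, and only slide 2, with wild-type arrays alone, held both treatments. With the slide as a block, the fall was called for 39 genes in wild type and for 34 in 35S:YFP-AFL1, and the medians were -1.57 and -1.55. The share of all genes called with that block is not given here, so these 2 counts cannot be set against it. The block moved the fold change by over 1.5 times for 2 genes in wild type and for 26 in 35S:YFP-AFL1. The 35S:YFP-AFL1 values below hold for the arrays without that block unless it is named. In RNA of whole seedlings, fewer cells of a type and less RNA per cell cannot be told apart. The shoot markers moved in the same direction as the photosystem genes: 11 of the 15 measured were called lower in wild type and 0 higher, with a median of -0.98, and 11 were lower in 35S:YFP-AFL1. Their summed signal, in multiples of the array's 75th percentile, ran from 51.3 to 60.7 in wild-type control and from 39.1 to 49.3 at low water potential, and from 58.4 to 60.1 and from 45.2 to 48.7 in 35S:YFP-AFL1. Of 15 root markers, 5 were lower and 2 higher in wild type, with a median of -0.02. The part of these markers in the fall of the photosystem genes was not tested.

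The photosystem I antenna held both the gene that did not pass the test and a steep fall. LHCA1 (AT3G54890), LHCA2 (AT3G61470), LHCA3 (AT1G61520) and LHCA4 (AT3G47470), which form the belt of antenna proteins, fell in both genotypes, with wild-type log2 fold changes of -1.65, -1.28, -1.40 and -1.30. In 35S:YFP-AFL1 these were -2.12, -1.59, -1.62 and -1.65. The other 2 genes, LHCA5 (AT1G45474) and LHCA6 (AT1G19150), encode antenna proteins of low abundance that link photosystem I to the chloroplast NADH dehydrogenase-like complex. LHCA6 stood at 4.2, 4.16, 3.97 and 3.84 in wild-type control and at -0.28, 0.93, 0.65 and 1.26 at low water potential, and at 4.24, 4.46 and 4.15 in control and -0.60, -0.35 and -0.56 in stress of 35S:YFP-AFL1. The treatments were far apart in both genotypes: LHCA6 fell 10.6-fold in wild type (-3.40 ± 0.25, adjusted p = 7.46e-08 by limma) and 27.6-fold in 35S:YFP-AFL1 (-4.79 ± 0.29). With the slide as a block the log2 fold changes were -2.91 and -3.22. LHCA5 stood at 3.53, 3.35, 3.45 and 3.52 in wild-type control and 2.92, 3.5, 3.63 and 3.54 at low water potential, and at 3.51, 3.45 and 3.55 in control and 3.42, 3.59 and 3.37 in stress of 35S:YFP-AFL1. Apart from wild-type stress replicate 1, which was the lowest of the 14, the LHCA5 values overlapped, with log2 fold changes of -0.06 ± 0.14 (adjusted p = 0.71) and -0.04 ± 0.16 (adjusted p = 0.831) by limma. The 95% confidence intervals ran from -0.37 to 0.24 and from -0.39 to 0.31.

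All 9 genes of the major photosystem II antenna fell in both genotypes, and they covered a wide range, from -0.77 to -4.17 in wild type and from -0.96 to -8.44 in 35S:YFP-AFL1. LHCB1 proteins are the most abundant part of the trimers. The 5 LHCB1 genes showed log2 fold changes in wild type of -1.23 (LHCB1.1, AT1G29920), -1.06 (LHCB1.2, AT1G29910), -0.77 (LHCB1.3, AT1G29930), -1.46 (LHCB1.4, AT2G34430) and -0.96 (LHCB1.5, AT2G34420). LHCB1.3 stood at 7.78, 8.15, 7.78 and 7.96 in wild-type control and at 6.90, 7.46, 7.36 and 6.87 at low water potential, and at 7.75, 7.76 and 7.60 in control and 6.58, 6.86 and 6.78 in stress of 35S:YFP-AFL1. Its treatments did not overlap in either genotype. At the probes that stand for the genes, it moved less than the other genes of the major antenna. That order depended on the probe: in wild type the 9 probes of LHCB1.3 ran from -1.96 to -0.77, and the 3 of LHCB1.2 from -1.06 to -0.97.

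The 3 LHCB2 genes, whose proteins are phosphorylated when antenna moves between the photosystems, and LHCB3 (AT5G54270), a minor partner in the trimers, had larger falls than the LHCB1 genes at the probes that stand for them: -2.77 (LHCB2.1, AT2G05100), -2.02 (LHCB2.2, AT2G05070), -4.17 (LHCB2.3, AT3G27690) and -3.33 (LHCB3) in wild type. LHCB2.3 stood at 5.66, 4.34, 4.38 and 4.47 in wild-type control and at -3.11, 1.46, 2.35 and 1.46 at low water potential, and at 5.52, 5.81 and 5.47 in control and -2.59, -3.19 and -2.76 in stress of 35S:YFP-AFL1. Replicate 1 of wild type, on the slides of the 35S:YFP-AFL1 arrays, was the highest wild-type control array and by far the lowest wild-type stress array of LHCB2.3, and in both treatments it lay within the range of the 35S:YFP-AFL1 arrays. The fall of LHCB2.3 was -4.17 ± 0.88 in wild type (adjusted p = 0.000982 by limma) and -8.44 ± 1.01 in 35S:YFP-AFL1 (adjusted p = 8e-06). Without wild-type stress replicate 1 it was -2.95 in wild type, and with the slide as a block -3.01 in wild type against -2.68 in 35S:YFP-AFL1. LHCB2.2 stood at 6.67, 6.35, 6.15 and 6.18 in wild-type control and at 3.25, 4.82, 4.86 and 4.34 at low water potential, and at 6.68, 6.83 and 6.47 in control and 2.94, 2.71 and 2.91 in stress of 35S:YFP-AFL1. Here too replicate 1 was the highest control and the lowest stress array of wild type, and the treatments were apart in both genotypes.

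**Figure D2:**
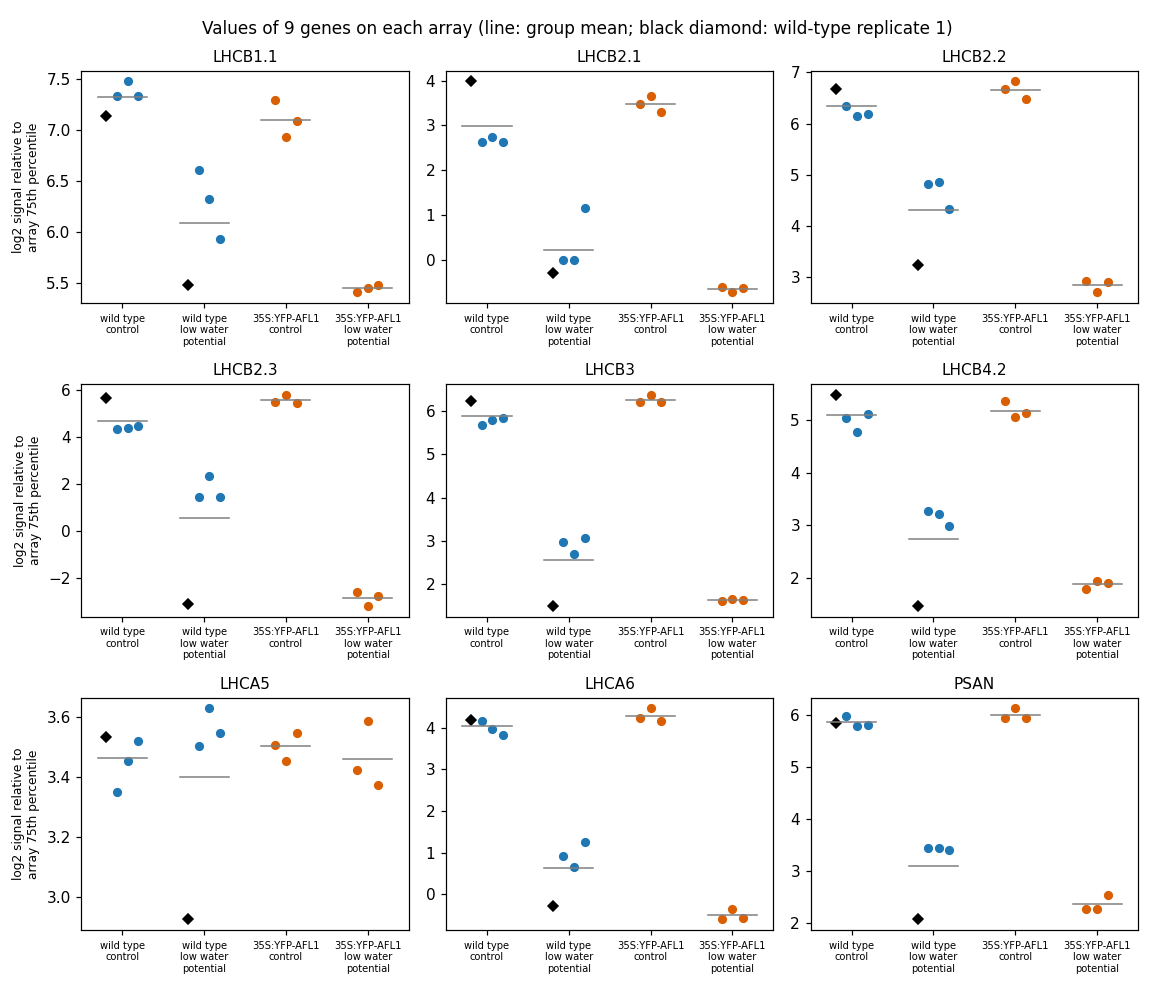
Log2 signal relative to the array's 75th percentile (vertical axis) of 9 antenna and photosystem genes on each of the 14 arrays, in the 4 groups (blue, wild type; orange, 35S:YFP-AFL1; grey line, group mean). Black diamonds are wild-type replicate 1, which shared its slide with the 35S:YFP-AFL1 arrays of the same treatment; at LHCB2.3 in stress it stands at -3.11, beside -2.59, -3.19 and -2.76 in 35S:YFP-AFL1 and below 1.46, 2.35 and 1.46 on the other wild-type arrays.

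The copies of LHCB1 and LHCB2 are alike in sequence, and a probe may pick up more than 1 of them, so the values of single copies are uncertain. Several probes were available for 34 of the 43 genes. Of the 127 probes, 125 were called lower and 1 higher in each genotype, against 32.8% of all probes lower in wild type, with 32.3% in 35S:YFP-AFL1. Among the LHCB1 and LHCB2 genes, sizes differed most at LHCB1.4: the probe that stands for it, the brightest, gave -1.46 in wild type against -1.87 in 35S:YFP-AFL1, while its other 3 probes gave -5.18, -4.96 and -4.31 in wild type and -6.67, -6.07 and -5.59 in 35S:YFP-AFL1. One such probe stood at 5.80, 5.06, 5.02 and 5.30 in wild-type control and at -1.12, 0.73, 1.13 and 0.61 at low water potential. On the brightest LHCB1.4 probe the same arrays gave 7.23, 7.25, 7.16 and 7.37 and 5.26, 6.15, 5.95 and 5.82, so that probes assigned to a single gene disagreed by several log2 units in the size of the fall and not in its direction. At LHCB1.1, 1 of 3 probes gave -2.86 in wild type against -5.15 in 35S:YFP-AFL1, beside -1.23 and -1.66 for the probe that stands for the gene. The 9 probes of LHCB1.3 ranged from -1.96 to -0.77 in wild type, the 4 of LHCB2.2 from -3.48 to -2.02, and the 4 of LHCB3 from -3.90 to -3.33. The smaller fall of LHCB1 than of LHCB2 genes held for the brightest probes and not for every probe.

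**Figure D3:**
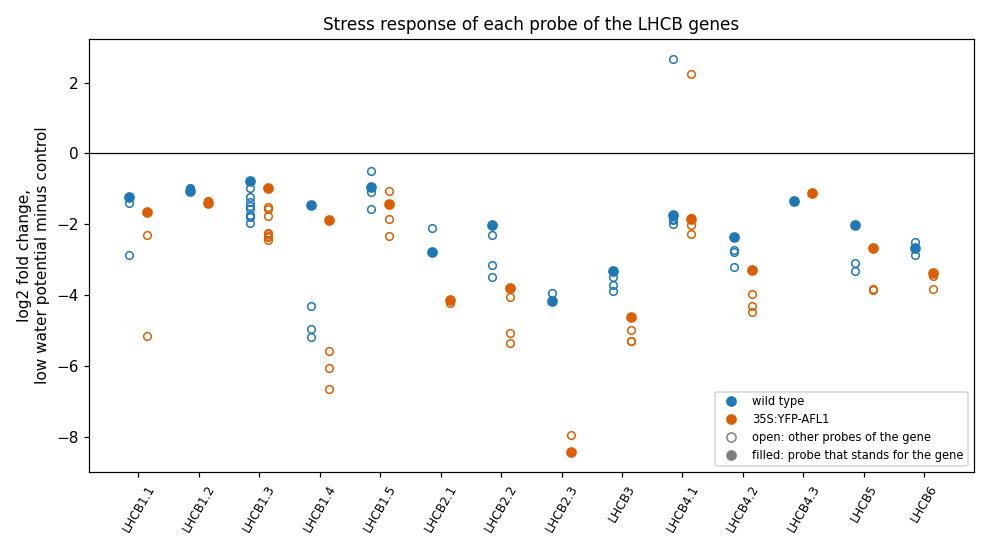
Log2 fold change at low water potential against control (vertical axis) of every probe of the 14 LHCB genes, in wild type (blue) and 35S:YFP-AFL1 (orange). Filled circles are the probe with the highest mean signal, which stands for the gene, and open circles its other probes; those of LHCB1.4 lie between -4.31 and -5.18 in wild type, below the filled circle at -1.46, and 1 probe of LHCB4.1 lies above 0.

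The 5 genes of the minor antenna fell in both genotypes, with medians of -2.02 in wild type against -2.67 in 35S:YFP-AFL1. LHCB6 (AT1G15820) encodes a protein that occurs only in land plants and binds a trimer to the core together with LHCB4. It had the steepest fall of the class at the probes that stand for the genes. Other probes did not keep this order. Over all their probes in wild type, LHCB6 ran from -2.86 to -2.50, LHCB5 from -3.32 to -2.02 and LHCB4.2 from -3.20 to -2.37. LHCB6 stood at 7.5, 7.43, 7.37 and 7.57 in wild-type control and at 3.88, 5.0, 5.32 and 4.97 at low water potential, and at 7.64, 7.27 and 7.46 in control and 4.02, 4.14 and 4.06 in stress of 35S:YFP-AFL1. No stress array came near a control array, and LHCB6 fell 6.38-fold in wild type (-2.67 ± 0.24, adjusted p = 4.01e-07 by limma) and 10.4-fold in 35S:YFP-AFL1. With the slide as a block its log2 fold changes were -2.57 and -2.33. LHCB5 (AT4G10340) had log2 fold changes of -2.02 and -2.67. The 3 LHCB4 genes encode forms of 1 protein that lies next to the core. LHCB4.1 (AT5G01530) stood at 6.30, 6.14, 6.28 and 6.15 in wild-type control and at 4.71, 4.46, 4.28 and 4.47 at low water potential, and at 6.43, 6.59 and 6.35 in control and 4.57, 4.80 and 4.42 in stress of 35S:YFP-AFL1. LHCB4.2 (AT3G08940) stood at 5.48, 5.04, 4.77 and 5.12 in control and 1.47, 3.27, 3.21 and 2.98 in stress of wild type, and at 5.36, 5.06 and 5.13 in control and 1.79, 1.94 and 1.90 in stress of 35S:YFP-AFL1. Both were apart between treatments, and at LHCB4.2 the wild-type stress replicate 1 was again well below the other wild-type arrays and close to the 35S:YFP-AFL1 arrays. LHCB4.3 (AT2G40100), the most divergent form, stood at 0.13, 1.12, 0.89 and 0.65 in control and -1.28, -0.53, -0.75 and -0.07 in stress of wild type, and at 0.09, 1.1 and 0.58 in control and -0.92, -0.23 and -0.46 in stress of 35S:YFP-AFL1. The treatments of LHCB4.3 did not overlap, but its arrays were more scattered, and its log2 fold changes were -1.36 ± 0.29 (adjusted p = 0.0012) and -1.13 ± 0.34 (adjusted p = 0.0105) by limma. Both calls were lost with the slide as a block (-1.18, adjusted p = 0.0822, and -0.90, adjusted p = 0.397, by limma). The call in 35S:YFP-AFL1 was also lost without its control replicate 2 (-0.87, adjusted p = 0.0538), within a range of 0.000328 to 0.397 over the alternatives.

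One of the 5 probes of LHCB4.1 was the only probe of the 127 that was called higher. It stood at 0.62, 0.23, 0.26 and -0.59 in wild-type control and at 3.15, 2.88, 2.77 and 2.46 at low water potential, and at 0.60, 0.72 and 0.52 in control and 2.85, 2.80 and 2.91 in stress of 35S:YFP-AFL1. All stress arrays of this probe lay above all control arrays, with log2 fold changes of 2.68 and 2.24. The other 4 LHCB4.1 probes had log2 fold changes of -2.0 to -1.74 in wild type.

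All 12 core genes of photosystem I fell in both genotypes, with medians of -1.65 and -2.02. PSAD and PSAE proteins lie on the stromal side and bind ferredoxin. PSAD1 (AT4G02770) stood at 6.10, 6.01, 5.86 and 6.13 in wild-type control and at 3.65, 4.37, 4.21 and 4.31 at low water potential, and at 6.14, 6.23 and 5.94 in control and 3.63, 3.64 and 3.88 in stress of 35S:YFP-AFL1. PSAD2 (AT1G03130) stood at 6.35, 6.44, 6.33 and 6.28 in control and 3.91, 4.39, 4.54 and 4.75 in stress of wild type, and at 6.44, 6.70 and 6.31 in control and 3.77, 3.91 and 3.92 in stress of 35S:YFP-AFL1. The PSAD genes both fell, with log2 fold changes of -1.89 and -1.95 in wild type and -2.38 and -2.62 in 35S:YFP-AFL1, with no overlap of treatments.

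PSAE1 (AT4G28750) stood at 7.09, 6.94, 6.84 and 7.17 in wild-type control and at 5.70, 5.88, 6.28 and 5.93 at low water potential, and at 6.93, 6.92 and 7.02 in control and 5.60, 5.76 and 5.58 in stress of 35S:YFP-AFL1. PSAE2 (AT2G20260) stood at 5.55, 5.47, 5.54 and 5.70 in control and 3.91, 4.19, 4.28 and 4.11 in stress of wild type, and at 5.57, 5.58 and 5.43 in control and 3.92, 4.05 and 4.13 in stress of 35S:YFP-AFL1. Neither gene showed an overlap of treatments, and PSAE1, at -1.06, had the smallest fall of the class in wild type. PSAH, PSAL (AT4G12800) and PSAO (AT1G08380) form the side of the core where mobile antenna docks. PSAH1 (AT3G16140) stood at 5.90, 5.80, 5.73 and 5.78 in wild-type control and at 4.34, 4.14, 4.18 and 4.52 at low water potential, and at 5.94, 6.07 and 5.81 in control and 4.29, 4.57 and 4.55 in stress of 35S:YFP-AFL1. PSAH2 (AT1G52230) stood at 6.03, 5.73, 5.67 and 5.78 in control and 2.68, 2.67, 2.66 and 3.22 in stress of wild type, and at 5.90, 6.10 and 5.86 in control and 2.60, 2.83 and 2.76 in stress of 35S:YFP-AFL1. The stress arrays of PSAH2 were tightly grouped except for wild-type replicate 4, and PSAH2 had the steepest fall of the class in wild type, 7.97-fold (-2.99 ± 0.14, adjusted p = 9.67e-10 by limma), against 2.84-fold for PSAH1 (-1.50 ± 0.11).

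Of the other photosystem I core genes, PSAN (AT5G64040), whose protein lies on the lumenal side where plastocyanin docks, fell most. It stood at 5.84, 5.99, 5.80 and 5.81 in wild-type control and at 2.07, 3.43, 3.45 and 3.40 at low water potential, and at 5.94, 6.13 and 5.94 in control and 2.27, 2.27 and 2.54 in stress of 35S:YFP-AFL1. Replicates 2 to 4 of wild-type stress lay close together, and replicate 1 was lower than all 3 of them and than the 35S:YFP-AFL1 arrays. The remaining genes had log2 fold changes in wild type of -1.47 (PSAF, AT1G31330, which binds plastocyanin), -1.80 (PSAG, AT1G55670) and -1.83 (PSAK, AT1G30380, both at the contact with the antenna), -1.23 (PSAL) and -1.35 (PSAO).

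The oxygen-evolving proteins shield the manganese cluster that splits water, on the lumenal side of photosystem II. All 6 of their genes fell in both genotypes, with medians of -1.91 and -2.51, and the outer proteins PSBP and PSBQ had larger falls than PSBO, which binds the cluster most directly. PSBO1 (AT5G66570) stood at 6.97, 6.93, 6.89 and 6.95 in wild-type control and at 4.80, 5.88, 5.83 and 5.50 at low water potential, and at 6.95, 6.89 and 6.89 in control and 5.08, 5.13 and 5.17 in stress of 35S:YFP-AFL1. PSBO2 (AT3G50820) stood at 5.23, 5.43, 5.47 and 5.26 in control and 3.04, 4.40, 4.35 and 4.12 in stress of wild type, and at 5.27, 5.66 and 5.43 in control and 3.45, 3.34 and 3.57 in stress of 35S:YFP-AFL1. Treatments were apart at both, with log2 fold changes in wild type of -1.43 and -1.37, and wild-type stress replicate 1 was the lowest array of each.

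PSBQ1 (AT4G21280) stood at 5.72, 5.80, 5.87 and 5.89 in wild-type control and at 2.24, 3.07, 2.99 and 3.33 at low water potential, and at 5.87, 6.09 and 5.92 in control and 2.44, 2.70 and 2.87 in stress of 35S:YFP-AFL1. PSBQ2 (AT4G05180) stood at 6.14, 6.16, 6.27 and 6.24 in control and 2.63, 4.19, 4.3 and 3.81 in stress of wild type, and at 6.28, 5.81 and 6.21 in control and 2.93, 3.16 and 3.18 in stress of 35S:YFP-AFL1. Both fell without overlap, 7.55-fold and 5.53-fold in wild type, and PSBP1 (AT1G06680) fell 5.24-fold (-2.39 ± 0.21, adjusted p = 3.11e-07 by limma). PSBR (AT1G79040), a small protein that helps PSBP bind, fell least: it stood at 6.70, 6.80, 6.72 and 6.65 in wild-type control and at 5.65, 6.5, 6.57 and 5.78 at low water potential, and at 6.31, 6.66 and 6.62 in control and 5.79, 5.53 and 5.45 in stress of 35S:YFP-AFL1. Wild-type stress replicates 2 and 3 were only slightly below the control arrays of PSBR, while replicates 1 and 4 were as low as the 35S:YFP-AFL1 arrays. The call for PSBR in wild type (-0.59 ± 0.19, adjusted p = 0.0168 by limma) was lost under 6 of 25 alternatives, with adjusted p from 0.00419 to 0.749. It had a log2 fold change of -0.15 in wild type against -0.05 in 35S:YFP-AFL1 with the slide as a block, and without wild-type stress replicate 4 its adjusted p was 0.0551.

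The 4 small photosystem II subunits, small proteins in the membrane around the core or, for PSBTN (AT3G21055), on its lumenal side, had the lowest class medians, -2.17 in wild type against -2.80 in 35S:YFP-AFL1. PSBTN stood at 5.29, 5.17, 5.42 and 5.29 in wild-type control and at 1.75, 2.71, 2.82 and 2.55 at low water potential, and at 5.19, 5.56 and 5.14 in control and 1.92, 1.97 and 2.29 in stress of 35S:YFP-AFL1. PSBW (AT2G30570) stood at 6.26, 6.47, 6.10 and 6.22 in control and 4.29, 4.88, 4.78 and 4.89 in stress of wild type, and at 6.11, 6.31 and 6.12 in control and 4.43, 4.53 and 4.26 in stress of 35S:YFP-AFL1. The treatments were apart at both genes, with the steepest fall of the class at PSBTN (-2.84 ± 0.20 in wild type, 7.14-fold) and the smallest at PSBW (-1.56 ± 0.14, 2.94-fold). PSBX (AT2G06520) and PSBY (AT1G67740) lay between them, at -2.03 and -2.31. This order holds at the probes that stand for the genes: the 3 probes of PSBY ran from -3.01 to -2.31 in wild type. PSBS (AT1G44575), which is needed for the rapid release of excess light energy as heat, stood at 5.45, 5.30, 5.58 and 5.37 in wild-type control and at 4.01, 4.27, 4.17 and 4.12 at low water potential, and at 5.57, 5.89 and 5.39 in control and 3.71, 3.66 and 3.56 in stress of 35S:YFP-AFL1. Both genotypes were apart between treatments, with log2 fold changes of -1.28 ± 0.12 and -1.97 ± 0.14.

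Set side by side, the antenna genes had a median log2 fold change of -1.56 in wild type and the core genes one of -1.82, a difference of 0.26 where the spread between replicate arrays of this difference was 0.109 (pooled SD). In 35S:YFP-AFL1 the medians were -1.87 and -2.14, a difference of 0.27. This order turned on the choice of probe: with the mean over all probes of a gene the difference was 0.053 in wild type against -0.42 in 35S:YFP-AFL1, where the antenna then had the larger fall. The classes within the antenna were less alike at the probes that stand for the genes. Their medians in wild type were -1.35 for the LHCA genes, -1.46 for the major and -2.02 for the minor photosystem II antenna. Class medians over all probes are not given here. The probes of LHCB1.4, in the major antenna, ran from -5.18 to -1.46 in wild type, so this order too may depend on the probe.

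The 18 photosystem I genes had a median of -1.49 and the 24 photosystem II genes one of -2.02 in wild type, a difference of 0.53 with a spread between arrays of 0.208 (pooled SD), and -1.82 and -2.65 in 35S:YFP-AFL1, a difference of 0.83. Photosystem II had the larger fall under all alternatives tried, but the size of the difference moved with the wild-type arrays used: it was 0.28 without wild-type stress replicate 1, and a slide block gave 0.22 in wild type against 0.11 in 35S:YFP-AFL1. These are descriptions of medians, with no test.

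For 8 pairs of paralogs, an exact two-sided permutation test over the arrays asked whether the 2 genes changed unequally, from the difference of their log2 values within each array. Treatment labels were exchanged within each genotype, which gave 1400 arrangements and a smallest possible p of 0.00143, and 5 of the 8 pairs passed after adjustment over the pairs. PSAH1 minus PSAH2 ranged from -0.13 to 0.07 in wild-type control and from 1.3 to 1.66 at low water potential, and from -0.05 to 0.04 and 1.68 to 1.79 in 35S:YFP-AFL1. The difference widened on every array of both genotypes, by a mean of 1.62 log2 units in favour of PSAH1 (exact permutation p = 0.00143, 0.00571 after Benjamini-Hochberg adjustment; 1.46 with the slide as a block). LHCA5 minus LHCA6 ranged from -0.81 to -0.32 in wild-type control to between 2.29 and 3.21 at low water potential, and from -1.01 to -0.60 to between 3.93 and 4.02 in 35S:YFP-AFL1. LHCA6 thus fell relative to LHCA5 by a mean of 4.04 log2 units (exact permutation p = 0.00143, 0.00571 after Benjamini-Hochberg adjustment; 3.33 with the slide as a block). These were the 2 pairs of the 5 whose treatments did not overlap in either genotype.

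The other called pairs moved less or depended on single arrays. PSAE1 fell less than PSAE2 by a mean of 0.28 (exact permutation p = 0.00429, 0.0114 after Benjamini-Hochberg adjustment), which did not pass with normexp background correction (adjusted p = 0.461, the highest over its alternatives) or with the mean over probes. At the probes that stand for the genes, PSBQ1 fell more than PSBQ2, by a mean difference of -0.36 (exact permutation p = 0.0229, 0.0366 after Benjamini-Hochberg adjustment). This call was lost when any 1 of 7 arrays was left out, among them each of the 4 wild-type control arrays. Over their probes in wild type, PSBQ1 ran from -2.92 to -2.83 and PSBQ2 from -3.03 to -2.47, so the order turned on the probe. LHCB4.1 minus LHCB4.2 changed by a mean of 1.04 (exact permutation p = 0.0129, 0.0257 after Benjamini-Hochberg adjustment), but in wild type at low water potential replicate 1 stood at 3.24 and the other 3 arrays lay between 1.07 and 1.49, within the control range, and with the slide as a block the change was -0.33. The call was also lost without wild-type control replicate 1 or 4. LHCB4.1 against LHCB4.3 (-0.56, adjusted p = 0.0705), PSAD1 against PSAD2 (0.14, adjusted p = 0.0963) and PSBO1 against PSBO2 (0.08, adjusted p = 0.459) did not pass the exact permutation test; LHCB4.1 against LHCB4.3 passed without wild-type stress replicate 1 (-0.70, adjusted p = 0.0137). The LHCB1 and LHCB2 copies were left out of these tests because a probe may pick up several of them.

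**Figure D4:**
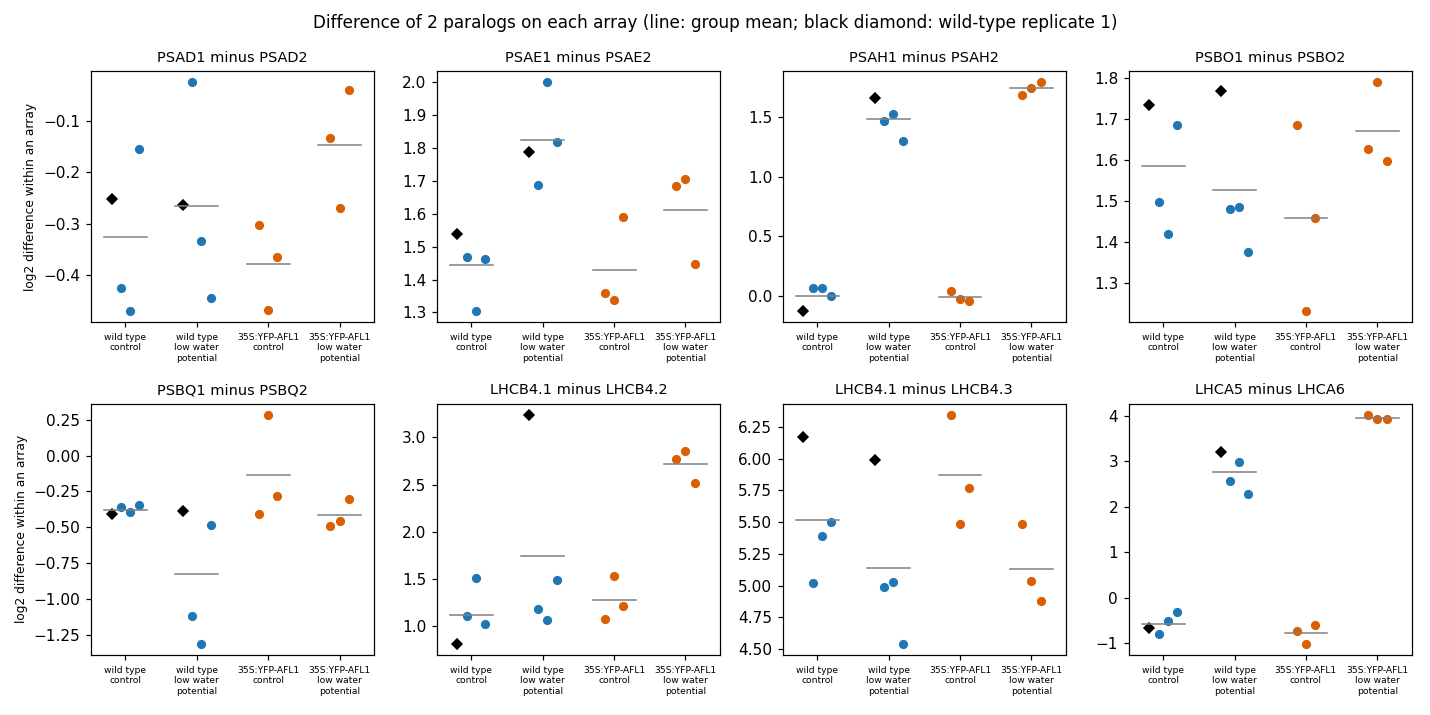
Difference of the log2 values of 2 paralogs within each array (vertical axis) for 8 pairs, in the 4 groups (blue, wild type; orange, 35S:YFP-AFL1; grey line, group mean; black diamond, wild-type replicate 1). PSAH1 minus PSAH2 rises from at most 0.07 to between 1.3 and 1.79, and LHCA5 minus LHCA6 from below 0 to between 2.29 and 4.02, while PSBO1 minus PSBO2 overlaps between treatments.

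Under control conditions the genotypes did not separate at these genes over all arrays: 0 of 43 were called, against 0.0218% of all genes (0.0109% lower and 0.0109% higher). By limma, 0 of the 43 had an unadjusted p under 0.05, where 2065 of the 18309 genes did. The median log2 difference of 35S:YFP-AFL1 from wild type at the 43 was 0.001. Against the wild-type arrays of slides 1 to 3 alone, 2 of the 43 were called higher in 35S:YFP-AFL1 in control and 0 lower. The share of all genes called in that fit is not given here, so this count cannot be set against it. At low water potential 3 of the 43 were called lower in 35S:YFP-AFL1 and 0 higher, against 1.69% of all genes lower, 0.475% higher and 2.17% in either direction. They were LHCB2.2, at -1.47 ± 0.31 (adjusted p = 0.0303), LHCA6, at -1.14 ± 0.27 (adjusted p = 0.0493), and LHCB1.5, at -0.71 ± 0.16 (adjusted p = 0.0437), all by limma. LHCB1.5 stood at 7.75, 7.79, 7.66 and 7.87 in wild-type control and at 6.35, 7.09, 7.09 and 6.69 at low water potential, and at 7.43, 7.58 and 7.53 in control and 5.97, 6.22 and 6.10 in stress of 35S:YFP-AFL1. On all 3 genes, which were picked by this call, replicate 1 was the wild-type stress array closest to the 35S:YFP-AFL1 stress arrays. Across the 43 genes the difference was below 0 for 39, with a median of -0.49 against 0.00 over all genes. LHCB2.3 showed the largest difference, -3.39, which did not pass (adjusted p = 0.0816 by limma).

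These differences depended on which wild-type array was the reference. Replicate 1 of wild type at low water potential, on the slide of the 35S:YFP-AFL1 stress arrays, was the lowest of the 4 wild-type stress arrays at 37 of the 43 genes, against 31.5% of all genes. Within that slide, where wild type was 1 array, 20 of 43 genes were below 0 and the median was 0.049. In that fit 0 were called, with 0.35% of all genes called and 0.224% lower. The spread came from the 35S:YFP-AFL1 arrays alone (4 residual degrees of freedom) and the lone wild-type array was assumed to vary like them, so this count is a description. Against the 3 wild-type stress arrays of slides 2 and 3, and without the wild-type control array of slide 4 as well, 41 were below 0, the median was -0.61, and 34 were called lower, with 12.9% of all genes called lower and 22.7% in either direction. Leaving out only wild-type stress replicate 1 gave 32 called lower (10.9% of all genes, and 19.2% in either direction). Leaving out any control array gave 1 or 2, and leaving out any other wild-type stress array or any 35S:YFP-AFL1 stress array gave 0. Over the 14 fits that each left out 1 array, the number of all genes called ran from 12 to 3523. It is not given here for each fit, so the counts of 0, 1 or 2 cannot be set against it. All 35S:YFP-AFL1 arrays lay on slides 4 and 5, so a slide effect and a genotype effect on these genes cannot be told apart beyond the single wild-type array of slide 5. Among the root markers, 5 of 15 were called lower in 35S:YFP-AFL1 at low water potential (CASP1, CASP5, ESB1, MYB36 and EXPA18, of the endodermis and root hairs, named because they were called), and the summed signal of the 15 ran from 8.30 to 11 in wild type and from 7.78 to 8.77 in 35S:YFP-AFL1. In control, where 0 root markers were called, their sums ran from 8.75 to 12.0 in wild type and from 6.59 to 8.22 in 35S:YFP-AFL1, without overlap. Their median difference was -0.86, against -0.51 at low water potential. 0 of 15 shoot markers were called in that comparison, with sums of 39.1 to 49.3 and 45.2 to 48.7. The part of root markers in the result was not tested.

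**Figure D5:**
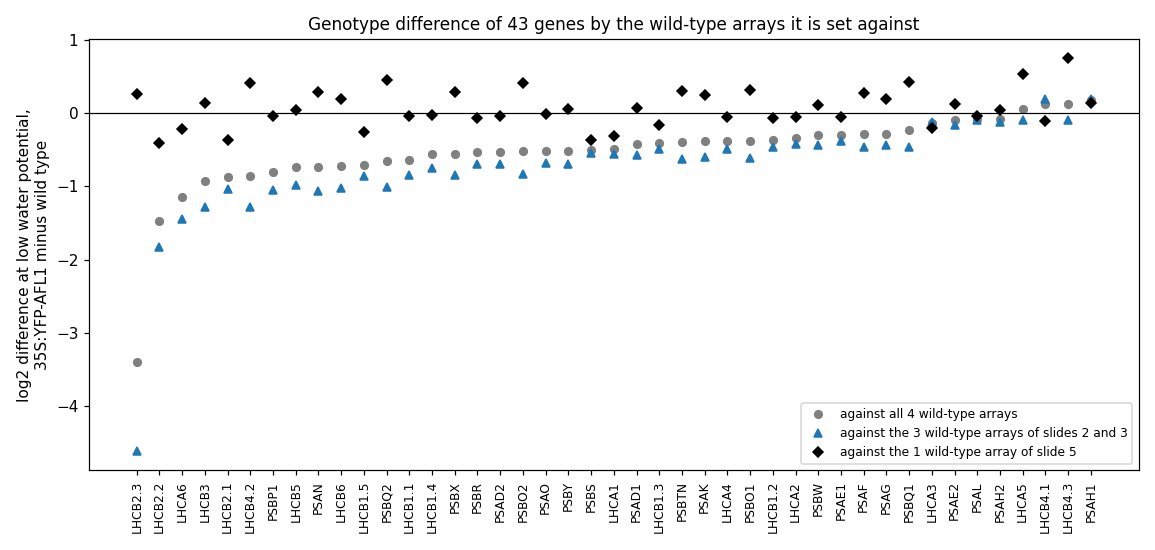
Log2 difference of 35S:YFP-AFL1 from wild type at low water potential (vertical axis) for each of the 43 genes, ordered by the value over all arrays. Grey circles are set against all 4 wild-type arrays, blue triangles against the 3 on slides 2 and 3, and black diamonds against the 1 on the slide of the 35S:YFP-AFL1 arrays; triangles lie below 0 for 41 genes and diamonds for 20.

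The difference of the stress responses between genotypes was not called for any of the 43 genes, nor for any gene (0% of 18309). By limma, 1782 genes and 11 of the 43 had an unadjusted p under 0.05, and the median difference of the 43 was -0.41, with 40 below 0. Both genotypes' responses use their own control arrays. Within slides 4 and 5 the median was 0.10 and 15 were below 0. There 0 were called, with 0.126% of all genes called and 0.0273% lower. Wild type had 1 array in each treatment there and the spread was that of the 35S:YFP-AFL1 arrays alone, so this count too is a description. Without wild-type stress replicate 1, 17 of 43 were called lower (2.93% of all genes lower and 4.12% in either direction), and with the wild-type arrays of slides 1 to 3 there were 18 (4.2% lower and 6.41% in either direction).

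Genes of other lists around the photosystems fell in part with them. Over all genes in wild type, 33.4% were called lower and 30.7% higher. Of 15 genes of photosynthetic electron transport and ATP synthesis, 13 fell and 1 rose in wild type, with a median of -1.32: PETE1 (-2.48) and PETE2 (-1.94) encode plastocyanin, ATPD (-2.03) a subunit of the ATP synthase and LFNR2 (-1.94) a ferredoxin-NADP reductase. The gene that rose, PGRL1B (1.25, adjusted p = 1.98e-06 by limma), belongs to cyclic electron flow and was named because it was the single one. Of 26 genes of chlorophyll synthesis, 24 fell and 0 rose, with a median of -1.66. They included PORB (-3.78), which makes chlorophyllide in light, CHLM (-2.90), a methyltransferase, and CHLI2 (-2.87), a subunit of magnesium chelatase. PORA, not well above background on any stress array, fell at least 19.4-fold in wild type and at least 32.6-fold in 35S:YFP-AFL1, where each stress array counts as the higher of its lowest signal well above background and the probe's own (adjusted p = 4.43e-10 and 5.14e-10 by limma).

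Of 10 genes related to the antenna or tied to it, 4 fell and 4 rose in wild type, near the shares over all genes. ELIP1 and ELIP2 encode early light-induced proteins, which bind chlorophyll under stress. ELIP1 stood at -0.50, -0.71, -1.0 and -1.55 in wild-type control and at 7.45, 5.50, 5.21 and 5.53 at low water potential, and at -0.45, -0.77 and -0.84 in control and 6.91, 7.24 and 7.13 in stress of 35S:YFP-AFL1. It rose on every array, with log2 fold changes of 6.86 ± 0.40 and 7.78 ± 0.46 (adjusted p = 7e-09 and 9.44e-09 by limma). ELIP2, not well above background on any control array, rose at least 39.6-fold in wild type and at least 48.8-fold in 35S:YFP-AFL1, where the probe's own signal was the higher on every control array (adjusted p = 2.56e-07 and 7.62e-07). LIL3.1 (-2.45), which binds enzymes of chlorophyll synthesis, and PSB33 (-1.35) fell.

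Of 10 genes for antenna targeting and phosphorylation, 5 fell and 1 rose in wild type. LTD (-2.33) and CPSRP43 (-1.93), which guide antenna proteins through the stroma, and CAS (-3.63), a thylakoid calcium sensor, fell, and STN7, the kinase of the LHCB proteins, rose (0.99). Of 13 assembly factors, 10 fell, among them PPL1 (-2.18), PSB28 (-1.96), Y3IP1 (-1.80) and LQY1 (-1.67), and 2 rose, FTSH2 (0.65) and FTSH5 (1.09), subunits of the protease that repairs photosystem II, named after their values were seen. Of the 18 measured among 20 regulators of photosynthesis genes, 9 fell and 6 rose, the second near the share over all genes. SIG5 (2.52), a sigma factor of the plastid polymerase, and GNC (2.08), a GATA factor, rose, and HYH (-2.49), a light-signalling factor, and SIG3 (-1.98) fell. GLK1, which activates antenna genes, fell (-1.44 ± 0.21, adjusted p = 5e-05 by limma) and stood at 0.85, 0.32, -0.03 and 0.44 in wild-type control and -1.57, -0.71, -1.08 and -0.84 at low water potential. GLK2 had a log2 fold change of -0.30 ± 0.30 in wild type (adjusted p = 0.394) and -1.01 ± 0.35 in 35S:YFP-AFL1 (adjusted p = 0.0221). In these 6 lists, 0 genes were called between 35S:YFP-AFL1 and wild type in either treatment. Over all genes 0.0218% were called in control and 2.17% at low water potential, so the 0 is near the shares over all genes.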

How the data were processed

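Intensity was deposited as Agilent's processed signal, background-subtracted within each array by Feature Extraction 10.7.1.1, per the file headers. The deposited table of all samples held the same intensity values on a linear scale (largest relative difference 0.0006, column medians 138 to 289), without centring between arrays. Each array had 45220 spots. An array's 75th percentile was 796 to 1591 units. Of the probes, 59.6% to 67.1% exceeded background clearly and 0 spots were saturated. Precision is limited by how many arrays there are. One array, 35S:YFP-AFL1 stress replicate 1, was written with 3 significant digits.

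Log2 signal minus the array's 75th percentile was averaged over the spots of a probe, without outlier spots. Probes kept (29101) were well above background on 3 or more arrays of some group, the probe with the highest mean stood for a gene, and names came from RefSeq's gene table through the transcript accession (34358 of 43603 probes). Limma 3.58.1 in R 4.3.3 fitted 4 group means, with 10 residual degrees of freedom, and was tested on simulated data. A probe dim on every array of a group gives only a bound, from the higher of the array's lowest signal well above background and the probe's own. The members and gene lists were chosen with earlier results of these data known. Genes given array by array were, in each class, the lowest and highest wild-type response, both genes of a pair, and genes called between genotypes; in other lists, up to 4 genes with the largest called change, with GLK1, GLK2, ELIP1 and ELIP2; others are said to be named after their values were seen, and PSAN and LHCB1.4 are also such. Alternatives were normexp background, quantile and median normalization, other filters, the mean over probes, slide, scan day and replicate blocks, the deposited table and leaving out each array; normexp used the median spot signal. Values on slides 4 and 5 alone, or without their wild-type arrays, were chosen after seeing the data. Plastid-encoded genes were not analysed here.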

Additional observations from a re-analysis of the deposited data

Results flagged for a closer look

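In the wild-type groups of 4 arrays, 7 of 86 sets of values (43 genes in 2 groups) held an array far from the other 3, where chance gives about 1 in 20. Of the 7, 6 were replicate 1 and 1 was replicate 4. In wild-type control, replicate 1 stood at 3.98 for LHCB2.1, with the others between 2.62 and 2.74, and at 5.66 for LHCB2.3, with the others between 4.34 and 4.47. In wild-type stress, replicate 1 stood at -3.11 for LHCB2.3 (others 1.46 to 2.35), at 1.47 for LHCB4.2 (others 2.98 to 3.27), at 4.53 for PSAG (others 5.13 to 5.22) and at 2.07 for PSAN (others 3.40 to 3.45). Replicate 4 stood at 3.22 for PSAH2, with the others between 2.66 and 2.68. Replicate 1 shared its slides with the 35S:YFP-AFL1 arrays; the part of the slide in these values was not tested.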

How the results depend on the processing

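The fall of the 43 genes kept its direction and its call under all 25 settings tried first for 39 genes in wild type against 34 in 35S:YFP-AFL1; the calls lost were mostly under the slide block (inter-array correlation on a slide 0.44). LHCA5, at -0.61 in wild type on slides 4 and 5 (1 array against 1), turned above 0 in wild type with quantile normalization (0.061), median centring (0.10) or wild type from slides 1 to 3 (0.12), and in 35S:YFP-AFL1 with normexp (0.023), quantile normalization (0.074), median centring (0.16), the slide block (0.55) or a random slide effect (0.19); leaving out arrays gave -0.14 to 0.10 and -0.11 to 0.0019. The 3 genes called lower in 35S:YFP-AFL1 at low water potential became 1 with quantile normalization, median centring or the mean over probes. They became 0 with no filter or with a slide, random slide, scan day or replicate block. The share of all genes called under these settings is not given here, so these counts cannot be set against it. Leaving out arrays gave 0 to 32, where the number of all genes called ran from 12 to 3523. For the difference of responses it gave 0 to 17, where all genes called ran from 0 to 754. The medians of both comparisons turned above 0 with the slide block and on slides 4 and 5 alone (0.049 and 0.10). These 2 settings give the same estimate, set against the 1 wild-type array of each of these slides, and do not count as separate results. Wild type from slides 1 to 3 gave 2 genes called higher in 35S:YFP-AFL1 in control and 0 lower. The share of all genes called in control in that fit is not given here. It gave 34 called lower in stress (12.9% of all genes) and 18 called lower for the difference of responses (4.2% of all genes). Antenna minus core in wild type was 0.10 with quantile normalization, 0.053 with the mean over probes, 0.44 on slides 4 and 5 and 0.12 to 0.31 without 1 array; in 35S:YFP-AFL1 it was 0.41 with normexp, -0.42 with the mean over probes, 0.13 with the slide block and 0.15 with a random slide effect. Photosystem I minus II in wild type was 0.82 with the mean over probes, 0.22 with the slide block, 0.86 on slides 4 and 5, 0.30 with wild type from slides 1 to 3 and 0.28 to 0.64 without 1 array; in 35S:YFP-AFL1 it was 0.11 with the slide block and 0.60 with a random slide effect. Of the paralog pairs, 3 passed with the mean over probes or the replicate block, and 3 to 6 without 1 array. With the slide block PSBO1/PSBO2 (-0.12) and LHCB4.1/LHCB4.2 (-0.33) turned, as did LHCB4.1/LHCB4.3 with the mean over probes (0.19). The cause of these changes was not tested. Same-numbered arrays deviated together only in part (correlations -0.117 to 0.397 in wild type and 0.0211 to 0.148 with 35S:YFP-AFL1, with 2 of 4 wild-type and 2 of 3 35S:YFP-AFL1 control arrays, and 1 stress array of each genotype, closest to their own number), so the numbers were not taken to pair the samples; the replicate block left 42 genes called in both stress responses. Promoter motifs were not run.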
